A study of Mus musculus with 73 samples.

Results

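Cd9, Cd63, Cd81, Cd82, Cd37, Cd53 and Cd151 are 7 tetraspanin genes, and they were looked up by name among the 23994 mouse gene rows of a table of expression in single lung macrophages, where all 7 have a row. The 73 cells came from the right lung lobes of 1 Csf1r-GFP mouse of B6 background aged 10 weeks, 7 days after the left lung was removed (pneumonectomy). The sort took CD45+, CSF1R-GFP+ and F4/80+ cells, and the labels name Ly6G with no sign. In this line green fluorescent protein is driven by Csf1r, the gene of the receptor for macrophage colony-stimulating factor, which monocytes and macrophages share, so the sort can hold both. Each cell was captured on a Fluidigm C1 chip and its RNA amplified by the SMARTer method, which primes on the poly(A) tail. No unoperated lung was analysed here, and no value below describes an effect of the operation.

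Tetraspanins are small proteins that cross the membrane several times and hold integrins, immunoglobulin-superfamily proteins and proteases together in patches of membrane. CD9, CD81 and CD63 are common on small vesicles shed by cells, and CD63 also lies in late endosomes and lysosomes. CD37 and CD53 are found mainly on leukocytes, CD82 on many cell types, and CD151 binds laminin-receptor integrins and is abundant in endothelium and epithelium. In lung, resident alveolar macrophages are known for Ear1, Car4 and Plet1, and monocytes recruited from blood for the chemokine receptor Ccr2.

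Cells were grouped on their measured values, in FPKM (fragments per kilobase of transcript, scaled to the fragments of the cell). The 14 cells with at least 2 of Ear1, Car4 and Plet1 at FPKM 10 or more are called marker-high, and they were set against 48 other cells with Ccr2 at FPKM 1 or more, called Ccr2-positive. To show spread outside the marker-high cells, the other 59 cells were split in order into 10 C1q-positive cells (at least 2 of C1qa, C1qb and C1qc at FPKM 10), 11 class II-positive cells (at least 3 of H2-Aa, H2-Ab1, H2-Eb1 and Cd74 at FPKM 10), 31 other Ccr2-positive cells and 7 remaining cells. Of the C1q-positive cells, 6 also held Ccr2 and are among the 48. The tetraspanins and this contrast were chosen with results on these cells already known, so the values are a description. All cells came from 1 mouse and are not replicates, and no test was run. Intervals on shares of cells are exact Clopper-Pearson 95% intervals and cover counting error only. Where no cell of a class held a gene, the text gives another limit, 3 cells as a share of that class.

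The labels were checked against other markers. In the marker-high cells, 7 to 10 of 10 further alveolar macrophage genes were detected, where detected means FPKM of 1 or more. The 5 cells with only 1 of Ear1, Car4 and Plet1 at FPKM 10 held 1 to 7 of them (median 3), so this count alone does not separate the class. Marker-high cell 13 held 7, with a summed FPKM of 208, and class II-positive cell 64 also held 7, with 2873. C1qa, C1qb, C1qc, Pf4 and Folr2, and every gene of the endothelial, platelet, mast cell and erythroid lists, were detected in 0 of the 14 marker-high cells. Of 8 interstitial macrophage genes these 5 were absent, and the other 3 were found: Mrc1 in 14 of 14 marker-high cells (12 of 48 Ccr2-positive), Apoe in 2 (33 of 48) and Cx3cr1 in 1 (24 of 48). The mast cell and erythroid genes, and 4 of 6 platelet genes, were in none of the 73 cells, so their absence marks no class. All 5 B cell genes, 6 of 8 epithelial and 5 of 6 T and NK genes were also in no marker-high cell. The same held for 6 of 7 dendritic cell, 4 of 7 neutrophil and 1 of 6 non-classical monocyte genes. Many of these were also in none of the 73 cells, and their absence marks no class either. That was so for 4 B cell, 4 epithelial, 5 T and NK, 2 dendritic cell and 3 neutrophil genes. With Ccr2 itself left out, 7 classical monocyte genes summed to a median FPKM of 12.1 in marker-high and 3779 in Ccr2-positive cells. Marker-high cells 13 and 73 stood apart: they also held Ccr2 (FPKM 204 and 597) and 6 and 7 of those 7 monocyte genes, against 0 to 2 in the other 12. Mouse fragments per cell had a median of 1216960 in marker-high and 1517010 in Ccr2-positive cells (range over all cells 347003 to 3485951), and detected genes 2739.5 and 2257. A 0 in the table is a listed value and does not show that a gene was silent.

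The promoter windows of the 4 members that led the expression of the family in most cells or differed most between the classes are shown first, because all 4 can be read against the same short motifs. Each is 300 bases of RefSeq sequence on build GRCm38.p6, 250 bases before and 50 from a RefSeq transcript start onward, written 5′ to 3′ on the gene's strand. Capitals mark a PU.1 core (GAGGAAG on either strand, PU.1 being the factor that governs myeloid genes) or the letters TATAAA of a TATA box. The windows lie at chr6:125494711-125495010 on the minus strand for Cd9, chr10:128909095-128909394 on the plus strand for Cd63, chr7:143052500-143052799 on the plus strand for Cd81 and chr3:106790100-106790399 on the minus strand for Cd53. The start in the Cd63 window lies 8356 bases inside the span that GENCODE gives the gene, whose outermost transcript begins upstream, and the other 3 starts lie within 31 bases of the outermost one.
Cd9: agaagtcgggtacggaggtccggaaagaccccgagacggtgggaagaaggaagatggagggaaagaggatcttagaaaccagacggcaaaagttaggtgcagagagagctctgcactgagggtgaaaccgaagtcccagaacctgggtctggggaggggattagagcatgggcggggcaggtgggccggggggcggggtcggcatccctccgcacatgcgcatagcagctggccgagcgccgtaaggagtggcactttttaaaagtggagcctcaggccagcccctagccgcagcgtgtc
Cd63: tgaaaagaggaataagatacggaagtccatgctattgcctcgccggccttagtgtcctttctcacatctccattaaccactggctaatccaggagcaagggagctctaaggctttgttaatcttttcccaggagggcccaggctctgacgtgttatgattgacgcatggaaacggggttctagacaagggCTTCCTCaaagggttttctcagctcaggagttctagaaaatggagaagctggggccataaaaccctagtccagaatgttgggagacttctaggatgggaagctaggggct
Cd81: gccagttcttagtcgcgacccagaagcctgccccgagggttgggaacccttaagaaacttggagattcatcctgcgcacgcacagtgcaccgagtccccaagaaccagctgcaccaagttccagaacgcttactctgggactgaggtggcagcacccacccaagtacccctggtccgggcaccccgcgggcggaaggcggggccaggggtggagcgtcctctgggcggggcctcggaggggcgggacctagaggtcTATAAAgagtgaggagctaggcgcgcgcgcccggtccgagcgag
Cd53: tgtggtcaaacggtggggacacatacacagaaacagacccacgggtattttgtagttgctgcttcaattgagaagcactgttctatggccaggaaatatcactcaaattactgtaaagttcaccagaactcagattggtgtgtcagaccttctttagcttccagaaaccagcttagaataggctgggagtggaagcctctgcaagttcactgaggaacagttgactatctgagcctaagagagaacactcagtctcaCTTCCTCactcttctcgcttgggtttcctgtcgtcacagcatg

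The PU.1 core stood in the windows of Cd53 and Cd63, in each case as its reverse complement CTTCCTC, and also in the Cd37 window and in 1 of the 4 windows of Cd82. It stood in 13.6% of all 32851 mouse promoter windows of that length. The Cd81 window held TATAAA, as 13.6% of all windows do, and the Cd37 window held the E-box CACGTG, as 7.15% do. TATAAA began 6 bases after the Cd81 transcript start, so it is a match of letters only. The PU.1 core began 7 bases after the Cd53 start and 60 bases before the Cd63 start. None of the 7 genes' windows held the AP-1 letters TGANTCA (7.81% of all windows). Motifs were searched on both strands, and none of these 4 motifs was found in the Cd9 window. A match of letters is not evidence of binding, and an absent match says only that these letters are not in this window. GC content was 61.3% for Cd9, 65.7% for Cd81, 49.3% for Cd63 and 46.3% for Cd53, against a median of 52.7% over all windows.

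Cd9, which pairs with integrins and with immunoglobulin-superfamily partners at the cell surface, was the member with the highest level in marker-high cells. Its FPKM there had a lowest value of 353, a median of 3018.5 and a highest of 6191, with a mean of 3141 ± 1823 (SD, n = 14 cells). In Ccr2-positive cells the lowest was 0, the median 0.14 and the highest 897. All 14 marker-high cells held Cd9 (100%, interval 76.8% to 100%), as did 16 of 48 Ccr2-positive cells (33.3%, 20.4% to 48.4%). The groups overlapped only at the low end of the marker-high cells: 11 of 14 lay above the highest of the other 59 cells, and 6 of those 59, of which 3 were Ccr2-positive, reached the level of the lowest marker-high cell.

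The mean of log2(FPKM + 1) for Cd9 was 11.22 ± 1.32 in marker-high and 2.11 ± 3.28 in Ccr2-positive cells (SD over cells), a difference of 9.11. This was the largest positive difference of the 6151 genes detected in at least 8 cells, Ear1, Car4 and Plet1 included, and it ranked first or second under each of the 11 alternatives. On the linear scale the mean FPKM of Cd9 was 41.7-fold higher. Of the 6 members that entered this comparison, 3 (Cd9, Cd63 and Cd81) were higher by at least 1 log2 unit, where 15.9% of all genes were, and 1 (Cd37) was lower by at least 1, where 9.43% were. Cd82 and Cd53 lay within 1, and Cd151, in only 4 cells, did not enter. The median over the 6 was 1.09, against 0.07 over all genes. Because the family was picked with this contrast in view, these counts support nothing further.

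**Figure D1:**
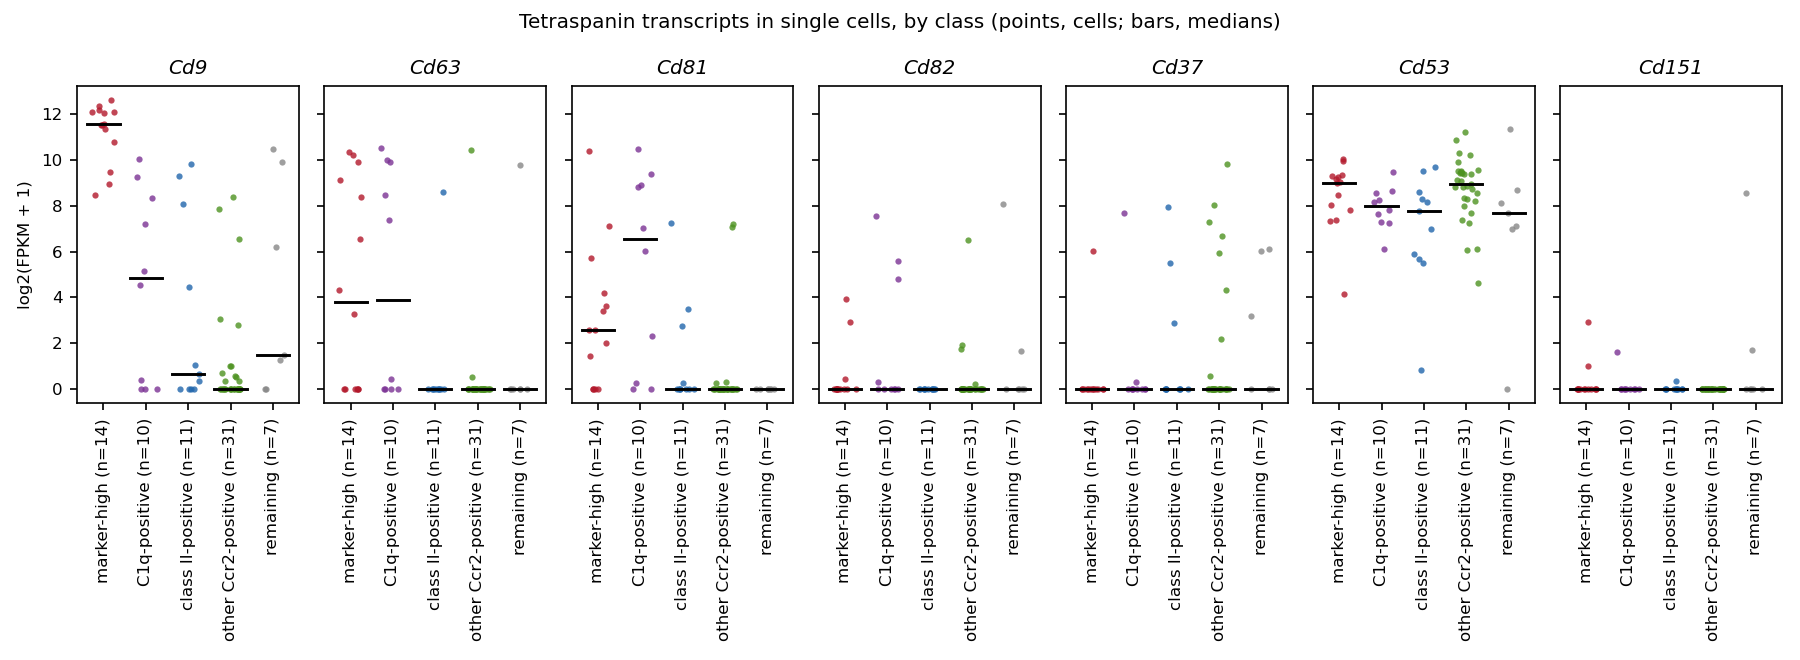
FPKM of the members in single cells, on a log2(FPKM + 1) axis, with 1 point per cell, a bar at each median and cells arranged by class (14 marker-high, 10 C1q-positive, 11 class II-positive, 31 other Ccr2-positive, 7 remaining). All 14 marker-high cells lie at or above FPKM 353 for Cd9, Cd53 overlaps between all classes, and Cd63 and Cd81 split within classes into cells at 0 and cells at higher levels.

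Outside the marker-high cells, Cd9 was not spread evenly. C1q-positive cells held it in 6 of 10 (median FPKM 28.3, highest 1057.5), class II-positive cells in 5 of 11 (median 0.6, highest 897) and other Ccr2-positive cells in 6 of 31 (median 0, highest 334). The remaining cells held it in 5 of 7, with a median of 1.8 and a highest value of 1401.5. By median the order was marker-high, C1q-positive, remaining, class II-positive and other Ccr2-positive, and each of the last 4 classes had a range that overlapped its neighbour's from 0 upward.

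Cd9 did not follow the number of markers at FPKM 10 step by step in cells near the limit of the marker rule. The 10 cells with all 3 of Ear1, Car4 and Plet1 had a median Cd9 FPKM of 2962 (353 to 5301), and the 4 cells with only 2 had a median of 3663 (497 to 6191). Just outside, the 5 cells with 1 marker had a median of 613.8 and were of mixed class. They were C1q-positive cell 25 (613.8), class II-positive cell 64 (619.7), other Ccr2-positive cell 75 (0.27) and remaining cells 83 (1401.5) and 2 (0). Within the marker-high cells the lowest Cd9 values, 353 and 497, belonged to cells 13 and 73, the pair that also held Ccr2 and the monocyte genes. Without that pair Cd9 ran from 699 to 6191 with a median of 3663, and the difference from Ccr2-positive cells was 9.52 log2 units. The part of monocyte RNA in the lower values was not tested.

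Cd63, the tetraspanin of late endosomes and lysosomes, varied between 0 and high levels within the classes. In marker-high cells its FPKM ran from 0 through a median of 13.9 to 1291, and 8 of 14 held it (57.1%, 28.9% to 82.3%). In Ccr2-positive cells it was held by 4 of 48 (8.33%, 2.32% to 19.98%), with a highest value of 1463 in a C1q-positive cell. The groups therefore overlapped over their whole range, and what separated them was the number of cells with the transcript. Mean log2(FPKM + 1) was 4.44 ± 4.47 against 0.79 ± 2.60 (SD over cells), a difference of 3.65 that ranked 61 of 6151.

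Outside the marker-high cells Cd63 lay mostly in C1q-positive cells: 5 of 10 held it, with a median of 81.6 and a highest FPKM of 1463. In the other classes it was held by 1 cell each, at 385 in 1 of 11 class II-positive cells, at 1366 in 1 of 31 other Ccr2-positive cells and at 865 in 1 of 7 remaining cells. All 16 cells with Cd63 also held Mrc1, the mannose receptor of macrophages, which every marker-high cell and 18 of the 59 other cells held. Of the 16, 12 held Cd9, as 36 of all 73 cells did. Outside the marker-high cells 4 of 8 cells with Cd63 held Cd9, where 22 of all 59 did.

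Cd81, a common vesicle tetraspanin, was present in more marker-high cells than Cd63 but at lower levels. Its FPKM there ran from 0 through a median of 4.91 to 1319, in 10 of 14 cells (71.4%, 41.9% to 91.6%). A single cell, number 36, gave the value of 1319, the next was 138, and only 5 of the 14 reached FPKM 10. Cell 36 was also the cell with the fewest mouse fragments, 347003. In Ccr2-positive cells Cd81 was held by 9 of 48 (18.8%, 8.95% to 32.6%), with a highest FPKM of 1438 in a C1q-positive cell, and the difference in mean log2(FPKM + 1) was 1.93 (3.07 ± 3.04 against 1.14 ± 2.58, SD over cells; rank 329).

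The highest Cd81 class was not the marker-high one. In C1q-positive cells 7 of 10 held it, 6 of them at FPKM 10 or more, with a median of 97.9 and a highest value of 1438. It was in 3 of 11 class II-positive cells (highest 149), in 2 of 31 other Ccr2-positive cells (132 and 144) and in 0 of 7 remaining cells, where a count of 0 allows a share of up to 42.9%. Of the 22 cells with Cd81, 19 held Mrc1 and 18 held Cd9. Outside the marker-high cells 8 of 12 cells with Cd81 held Cd9, where 22 of all 59 did.

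Cd63 and Cd81 overlapped in part. Every marker-high cell held at least 1 of the pair (14 of 14), as did 8 of 10 C1q-positive cells, against 3 of 11 class II-positive, 3 of 31 other Ccr2-positive and 1 of 7 remaining cells. Of the 29 cells with either, 9 held both: 4 of the 8 marker-high cells with Cd63 held Cd81, and 5 of the 8 other cells with Cd63 did. In all, 7 cells held Cd9, Cd63 and Cd81 at once, of which 4 were marker-high, 2 C1q-positive and 1 class II-positive. In marker-high cells the rank correlation (Spearman) of Cd9 with Cd63 was 0.53 over 14 cells that share 1 mouse and differ in depth. The 2 marker-high cells with the lowest Cd9, 13 and 73, had Cd63 at 19.3 and 0.

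**Figure D2:**
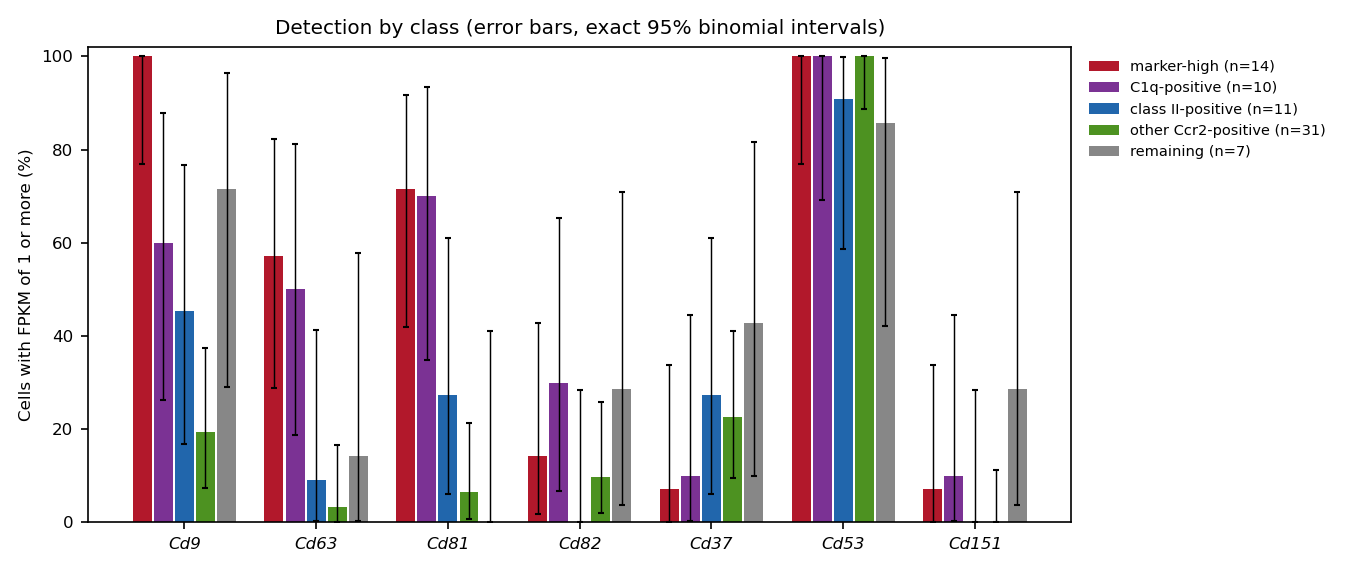
Percent of cells with each member at FPKM 1 or more, by class (bars), with exact 95% intervals as error bars. Cd9 reached 100% of marker-high cells and 19.4% of other Ccr2-positive cells, Cd53 lay at 85.7% or more in every class, and Cd82 and Cd151 were in at most 3 of 10 C1q-positive cells and 2 of 7 remaining cells.

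Cd53, a leukocyte tetraspanin, was the family member shared by the cells: 71 of 73 held it. Its FPKM ran from 16.5 through a median of 512 to 1053 in marker-high cells (mean 480 ± 306, SD, n = 14) and from 0.8 through 383 to 2407 in Ccr2-positive cells (488 ± 464, n = 48). The ranges overlapped almost entirely, and the difference in mean log2(FPKM + 1) was 0.24, smaller than the SD over cells of either group (1.51 and 1.81). By class the medians were 512 in marker-high, 497.5 in other Ccr2-positive, 255 in C1q-positive, 215 in class II-positive and 203 in remaining cells, and neighbours in that order differed by less than their spread.

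In 20 cells Cd53 was the sole member detected, and all 20 were Ccr2-positive: 17 other Ccr2-positive cells and 3 class II-positive cells. No marker-high or C1q-positive cell was of this kind. Within the marker-high cells Cd53 moved with depth, with a rank correlation of 0.71 with mouse fragments over 14 cells, while in Ccr2-positive cells it was 0.19. For Cd9 these were 0.12 and 0.16, but in marker-high cells Cd9 correlated at 0.55 with the number of genes detected. Cd81 in marker-high cells correlated at -0.56 with mouse fragments.

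Cd37, a leukocyte tetraspanin best known from B cells, was in 15 of 73 cells (20.5%). It was held by 1 of 14 marker-high cells, at FPKM 63.5 in cell 73, and by 11 of 48 Ccr2-positive cells (22.9%, 12.03% to 37.3%), with a highest value of 910.5. The marker-high cell that held it was 1 of the pair with Ccr2. By class Cd37 was in 7 of 31 other Ccr2-positive, 3 of 11 class II-positive, 1 of 10 C1q-positive and 3 of 7 remaining cells. The difference in mean log2(FPKM + 1) was -1.01, just past 1, and it was -0.96 when every cell's FPKM was rescaled to one total. Of the 15 cells with Cd37, 12 held Ccr2 and 5 held Cd9. Over all 73 cells, 50 held Ccr2 and 36 held Cd9.

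Cd82, which restrains cell migration and is found on many cell types, was sparse, in 10 of 73 cells. Marker-high cells held it in 2 of 14, at FPKM 14.04 and 6.55, and Ccr2-positive cells in 5 of 48, with a difference of 0.05 log2 units. It was in 3 of 10 C1q-positive cells (highest 186), 3 of 31 other Ccr2-positive and 2 of 7 remaining cells (highest 268), and in 0 of 11 class II-positive cells, which allows up to 27.3%. Of the 10 cells with Cd82, 8 held Cd9. Outside the marker-high cells 6 of 8 cells with Cd82 held Cd9, where 22 of all 59 did.

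Cd151, the laminin-integrin tetraspanin, was in 4 cells, and only cell 2 reached FPKM 10, at 376. Cell 2 belonged to the remaining class, held 5 endothelial markers at FPKM 10 or more and listed Cd53, the leukocyte member, at 0. The endothelial rule of at least 3 markers was also met by C1q-positive cell 38 (Cd9 at 22.2, Cd82 at 26.6) and class II-positive cell 54 (Cd9 at 20.8, Cd81 at 149). The part of endothelial RNA in these values was not tested.

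Per cell, the family was led by different members. FPKM is scaled to transcript length, but coverage along each transcript and shared reads were not tested, so comparisons between members are approximate. Cd9 was the highest of the 7 in 12 of 14 marker-high cells and Cd53 in 2, which were cells 13 and 73. In other Ccr2-positive cells Cd53 led in 29 of 31, and in class II-positive cells in 7 of 11. C1q-positive cells were mixed: Cd9 led in 3, Cd63 in 3, Cd53 in 2, and Cd81 and Cd37 in 1 each. Over all cells Cd53 led in 44 and Cd9 in 21.

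The summed FPKM of the 7 had a median of 4160 in marker-high, 1190 in C1q-positive, 646 in other Ccr2-positive, 439 in remaining and 386 in class II-positive cells. Cd9 made up a median of 81.3% of that sum in marker-high cells (35.8% to 96.2%), and Cd53 99.8% in other Ccr2-positive cells. The median number of members detected was 3.5 in marker-high, 3 in C1q-positive, 2 in class II-positive, 1 in other Ccr2-positive and 3 in remaining cells. C1q-positive cell 50 held 6 of the 7, the most of any cell.

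**Figure D3:**
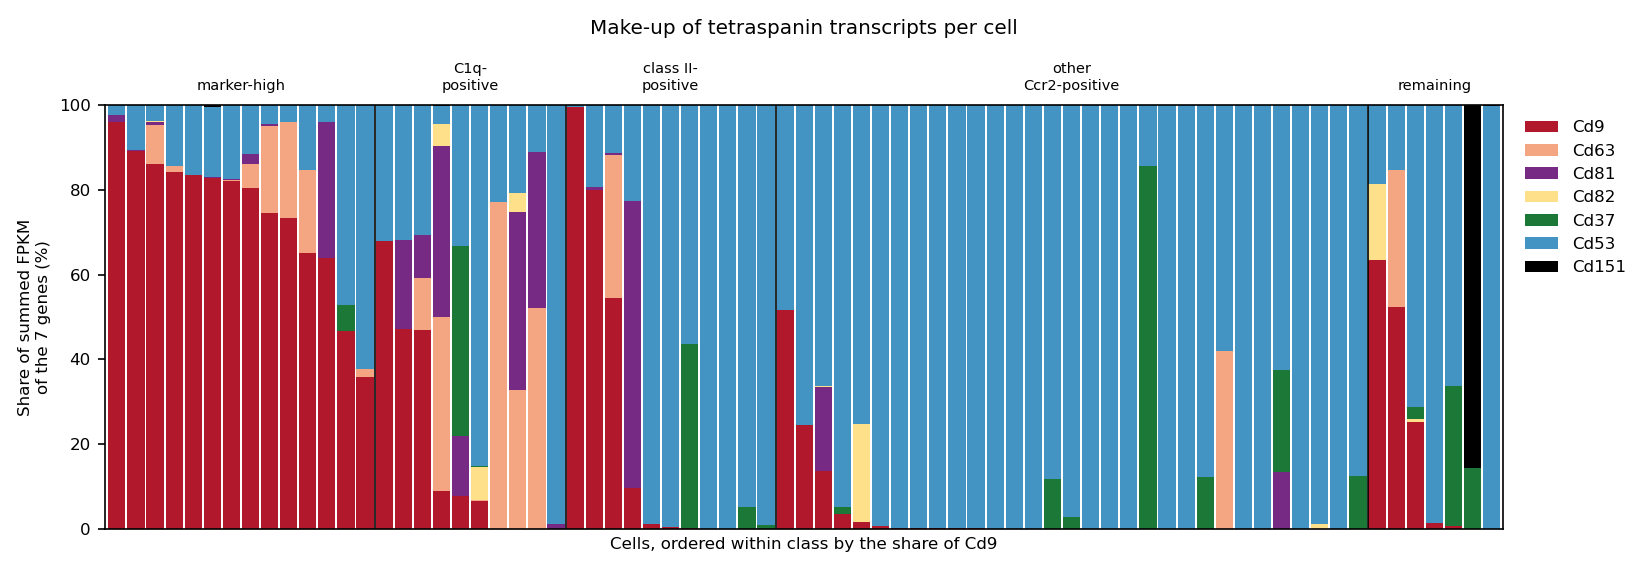
Share of the summed FPKM of the 7 members held by each member, in percent, with 1 bar per cell grouped by class. Cd9 fills a median of 81.3% of the bar in marker-high cells and Cd53 99.8% in other Ccr2-positive cells, while C1q-positive cells are led by different members in different cells.

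Of 24 other tetraspanin genes, all with a row in the table, 7 were detected in no cell and 6 in at least 8 cells. Among those 6, none was higher by at least 1 log2 unit in marker-high cells and Tspan13 was lower, with a median of 0.20 over the 6 against 0.07 over all genes. Tspan13 was held by 1 of 14 marker-high cells (FPKM 21.3) and 19 of 48 Ccr2-positive cells (highest 599), a difference of -2.15. Tspan3 was detected in 0 of 14 and 10 of 48 (difference -0.82). Tspan31, the most widely detected of the 6, in 38 cells, differed by 0.30, and Tspan14, a partner of the protease ADAM10, by 0.42. Under a pseudocount of 0.1, in which low values weigh more, Tspan14 and Tspan32 were higher by at least 1 and Tspan3 was lower, at -1.50, beside Tspan13. With the deposited count table Tspan14 was higher and Tspan3 and Tspan13 were lower.

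Tetraspanin partners were read from lists by role. Of 8 integrin subunits in at least 8 cells, Itgax, Itgb2 and Itgal were higher by at least 1 in marker-high cells (15.9% of all genes were) and Itgam, Itga4 and Itgb7 lower (9.43% were). Itgax, the CD11c subunit abundant on alveolar macrophages, was in 13 of 14 marker-high and 7 of 48 Ccr2-positive cells, with a difference of 4.01. Itgam, the CD11b subunit of monocytes, was in 1 of 14 and 37 of 48, with a difference of -2.99. Itgb1, the subunit that pairs with many tetraspanins, differed by 0.91, and by more than 1 in 5 of the 11 alternatives. The tetraspanin partners Ptgfrn and Igsf8, proteins of the immunoglobulin superfamily, differed by 1.06 and -0.03. Ptgfrn was in 6 of 14 marker-high and 4 of 48 Ccr2-positive cells and fell under 1 when the marker rule used FPKM 1.

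Of 7 genes of vesicle formation and late endosomes, 4 were higher by at least 1 (Sdcbp, Pdcd6ip, Lamp1 and Tsg101, where 15.9% of all genes were) and 2 lower (Sdc4 and Lamp2, where 9.43% were). Sdcbp, the syntenin that binds CD63, was in all 14 marker-high cells (median FPKM 295) and in 40 of 48 Ccr2-positive cells (median 44.6), a difference of 2.40. Sdc4, the syndecan that syntenin also binds, was in 0 of 14 marker-high cells, which allows up to 21.4%, and in 21 of 48 Ccr2-positive cells (difference -3.42). The C1q-positive cells, with Cd63 in 5 of 10 cells, held Sdc4 in all 10. Tsg101 fell under 1 in 3 alternatives. Of the 2 tetraspanin-associated proteases, Adam10 differed by -1.01, and by -0.50 when the marker rule used FPKM 1, and Adam17 by -0.15.

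Class II genes, whose products sit beside CD9, CD81 and CD37 in membranes of antigen-presenting cells, were lower by at least 1 in marker-high cells for 4 of 5 genes (9.43% of all genes), led by H2-Ab1 at -2.50. That was 1 of 5 when the marker rule used FPKM 1, with H2-Aa at -0.88 and H2-Eb1 at -0.25. With all 3 markers required it was 3 of 5. H2-Aa, H2-Ab1 and H2-Eb1 also helped define the class II-positive cells, all 11 of which are among the 48. The 31 other Ccr2-positive cells are what was left once cells meeting the C1q or class II rule were set apart. Low values of these 3 genes there follow in part from that rule. In those 31 cells mean log2(FPKM + 1) was 0.22 for H2-Aa, 0.57 for H2-Ab1 and 0.14 for H2-Eb1. In marker-high cells, from which no cell was set apart by class II genes, these means were 0.99, 1.13 and 0.78. Cell 13 was the only marker-high cell with any of these 3 genes at FPKM 10 or more. It held them at 816, 1094 and 391 and was the 1 marker-high cell that met the class II rule. In the 31 other Ccr2-positive cells H2-DMb1 stood at 1.04 against 1.81 in marker-high cells, and H2-DMa at 3.16 against 3.11. By these means none of the 5 genes was lower by 1 against those 31 cells. Cd74, a gene of the class II rule, was not among the 5, and it went the other way. Its mean log2(FPKM + 1) in marker-high cells, 2.55, was lower by more than 1 than in those 31 cells. It was detected in 6 of 14 marker-high cells and in 20 of those 31.

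**Figure D4:**
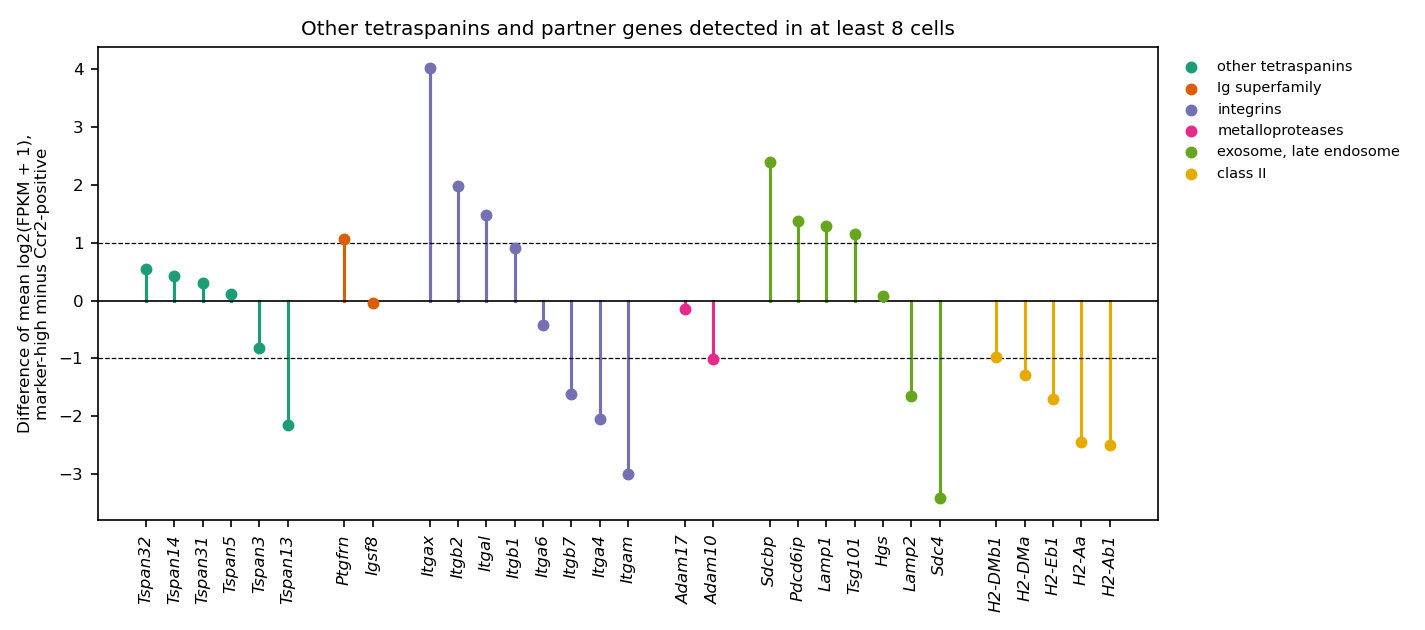
Difference in mean log2(FPKM + 1) of marker-high minus Ccr2-positive cells for other tetraspanins and partner genes in at least 8 cells, coloured by role, with dashed lines at 1 and -1. Itgax (4.01) lies highest and Sdc4 (-3.42) lowest.

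Genes whose levels ran most like each member were ranked by Spearman correlation of log2(FPKM + 1) over the 73 cells, among 2975 genes in at least 20 cells. The points share 1 mouse and differ in depth, and the values are a description. For Cd9 the 5 were Ear2 (0.76), Ear1 (0.73), Lpl (0.68), Itgax (0.67) and Actn1 (0.62). Ear1 helped choose the marker-high cells, and within the 59 other cells these were 0.57, 0.47, 0.39, 0.41 and 0.31. Within the 14 marker-high cells they were 0.31, 0.18, 0.69, 0.50 and 0.21, the highest being that of Lpl, lipoprotein lipase. For Cd63 the first were Dab2 (0.59) and Mrc1 (0.59), and for Cd81 Ptms (0.56) and Mrc1 (0.52). Within the 14 marker-high cells these 4 values were 0.52, 0.007, 0.24 and 0.44, and within the 59 other cells 0.52, 0.62, 0.52 and 0.48. For Cd53 the 5 were Lyz2 (0.57), Lgals3 (0.54), Vim (0.52), Capg (0.50) and Atp5l (0.49), and for Cd37 the first was Ly6a (0.51). Cd82 and Cd151, in 10 and 4 cells, gave at most 0.43 and 0.40, and with so few cells these are not read.

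**Figure D5:**
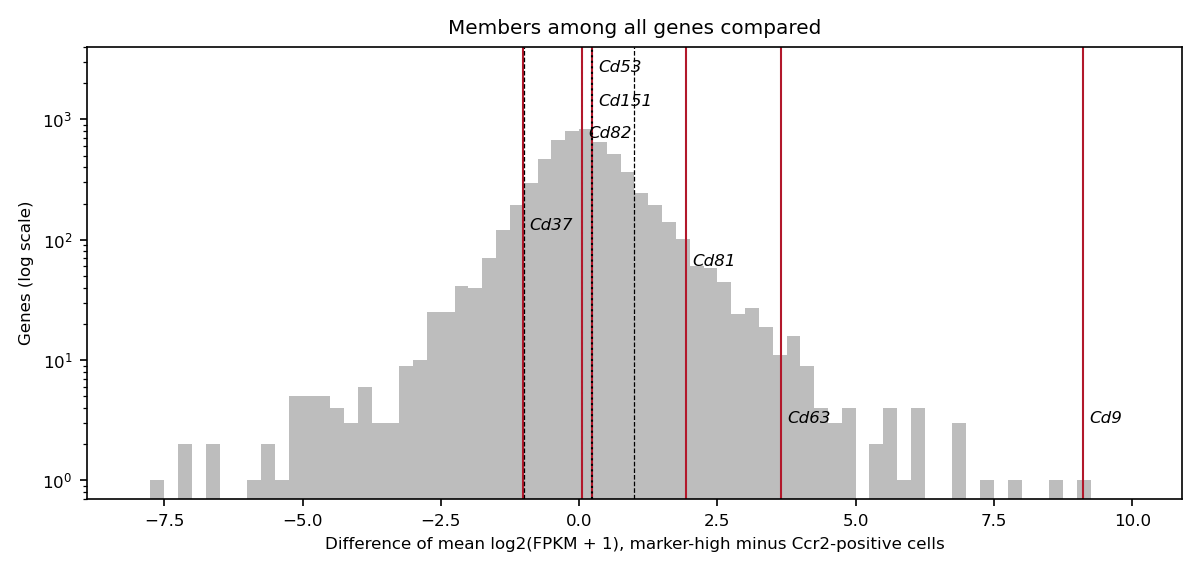
Distribution of the difference in mean log2(FPKM + 1), marker-high minus Ccr2-positive cells, over the 6151 genes in at least 8 cells, with genes counted on a log axis, the 6 members as solid lines and Cd151, in too few cells to enter, as a dotted line. Cd9 (9.11) lies at the far right end, Cd63 (3.65) and Cd81 (1.93) to the right of 1, Cd53 (0.24) and Cd82 (0.05) near the median of 0.07, and Cd37 at -1.01.

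The genes lie on 5 chromosomes of mm10. Cd9 spans chr6:125460266-125494791, Cd63 chr10:128900989-128912822, Cd53 chr3:106759921-106790149 and Cd82 chr2:93419111-93463140. The other 3 lie on chromosome 7, Cd37 at 45233632 to 45239115, Cd151 at 141467392 to 141471473 and Cd81 at 143052739 to 143067934. All 7 are annotated as protein-coding. Cd81, Cd82 and Cd37 overlap genes on the other strand (R74862, Gm10804 and Tead2), each detected in 0 of 73 cells. The overlapping models beside Cd9 (Gm28809 and Gm26728) and Cd151 (Gm10575), and the processed pseudogenes Cd9-ps and Cd63-ps, have no row in the table, and how shared reads were assigned was not tested.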

How the data were processed

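Single cells were captured and sequenced by the authors, and the sources used here give no gene annotation, parameters or filter on cells. The submitters' processing notes name build mm10, Cuffnorm with Cufflinks 2.2.1, TopHat2 2.1.0 and CASAVA 1.8. The deposited FPKM table is the main source. The second deposited table holds a normalised signal (counts divided by a factor per cell), of which 99.6% of 100062 values between 0.5 and 20 steps lay within 0.1 of a whole step. It gave the fragments per cell. After removal of 100 spike-in rows, 23994 gene rows were left. A gene was detected at FPKM 1. Differences are of mean log2(FPKM + 1) for genes in at least 8 cells. All 73 cells form 1 group of 1 animal, so no test was run. The members, lists and cell classes were chosen with earlier results of these data known. The genes named are the 7 members, list members, the 5 genes most correlated with each member and class-defining genes. Alternatives were a pseudocount of 0.1, the count table, rescaled FPKM, thinning to 347003 fragments and other marker rules. Leaving out the marker-high cells that hold Ccr2 was chosen after seeing the data. One gene of the lists is not reported here. Promoters are from RefSeq (GRCm38.p6) and gene positions from GENCODE M21. Analyses used Python 3.11.15, pandas 2.3.3, NumPy 2.4.6 and SciPy 1.17.1. The calculation of differences was checked on simulated data.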

Additional observations from a re-analysis of the deposited data

How the results depend on the processing

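The member differences were recomputed under 11 alternatives, and each moved by less than the pooled SD over cells. That SD was larger than the reported difference itself for Cd81 (2.69 against 1.93), Cd82, Cd37, Cd53 and Cd151. For these members the rule says little, and the ranges of the differences are given. The ranges were 8.52 to 11.05 for Cd9, 2.76 to 5.18 for Cd63, 1.69 to 3.46 for Cd81, -1.59 to -0.96 for Cd37, -0.13 to 0.27 for Cd82, -0.03 to 0.36 for Cd53 and 0.07 to 0.55 for Cd151. Cd9, Cd63 and Cd81 stayed past 1 in all 11 and Cd37 in 10, while Cd82 was positive in 7 and Cd53 in 10. The counts of genes past 1 moved by more than 1.5 times in 2 settings. With a pseudocount of 0.1 there were 1758 higher and 1001 lower, and 1605 higher and 888 lower with the deposited counts, against 979 and 580 as reported. In these settings the median of all genes was 0.25 and 0.21, not 0.07, and the Cd81 difference with the former was 3.46. With all 3 markers required, Cd81 differed by 3.01. Detection shares followed the threshold: Cd81 was in 35.7% of marker-high cells at FPKM 10 and Cd9 in 50% of Ccr2-positive cells at any value above 0. Thinning to one depth moved no share beyond its interval. No paired analysis was possible because all cells form 1 group from 1 mouse. That also limits every value here: spread between animals was not measured, low transcripts may be missed in a single cell, and the mean differences mix how many cells hold a transcript with how much they hold.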
